A study of Rattus norvegicus with 20 samples.

Results

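Transcripts of the enzymes and transporters that make, store, recapture and break down monoamines were examined in the prefrontal cortex and nucleus accumbens of adult male rats. The set held 9 genes (Th, Ddc, Slc6a3, Slc18a2, Maoa, Maob, Gch1, Pts and Qdpr) out of 17228 named genes and 18288 RefSeq accessions with counts. Each gene was represented by its accession with the highest mean count. In the deposited tables, which use rat build rn6, Th, Slc6a3 and Slc18a2 lie on chromosome 1, Pts on 8, Ddc and Qdpr on 14, Gch1 on 15, and Maoa and Maob on X. The rats were of the Fischer344/Jcl strain. They ate either AIN-93G, a standard purified rodent diet, or a low-iron diet from day 21 to day 39 of age, and tissue was collected at 13 weeks, long after the diet period. Each of the 4 groups (cortex or accumbens, standard or low-iron diet) had 5 libraries of poly(A) RNA. No transgene, deletion or drug is named for any group. Whether each library is a rat of its own is not stated, so a p-value here speaks of the scatter among libraries, part of which may be technical. It is also not stated whether cortex and accumbens libraries share rats.

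Dopamine and noradrenaline are made from tyrosine by tyrosine hydroxylase (Th), the rate-limiting enzyme, which holds an iron atom at its active site and needs tetrahydrobiopterin as cofactor. The resulting L-DOPA is decarboxylated by aromatic L-amino acid decarboxylase (Ddc). The amine is then loaded into vesicles by the vesicular monoamine transporter VMAT2 (Slc18a2), taken back from the synapse by the dopamine transporter (Slc6a3) and oxidised by the monoamine oxidases A and B on the outer mitochondrial membrane. The accumbens and prefrontal cortex receive dopamine fibres from neurons whose cell bodies, and most of whose transcripts, lie in the midbrain, so RNA of these regions mainly reports local cells.

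Between 4.34 and 12.97 M reads were assigned to accessions in a library, fewer in the low-iron accumbens group (5.13 ± 0.696 M, SD, n = 5) than in the standard accumbens group (7.19 ± 1.35 M, SD, n = 5). Levels below are CPM (reads per M, the standard depth unit), scaled by library size with TMM (trimmed mean of M values) and not by transcript length, so they are compared between groups and not between genes. A library with 0 reads of a gene could hold up to 3 reads by counting error alone, which is 0.240 to 0.658 CPM depending on the library. In bulk tissue, fewer cells of a type and less RNA per cell cannot be told apart. The dissections carried their regional markers: all 10 tested genes of a striatal projection neuron list were higher in the accumbens under either diet. Among all accessions 23.0% passed as higher there under the standard diet and 30.1% after the low-iron diet. Of a cortical glutamatergic list, 7 genes passed the filter on low counts within the accumbens as well, and all 7 were lower there under either diet. Among all accessions 24.0% and 29.0% passed as lower. Adora2a and Tac1 of the striatal list had under 10 reads in all libraries together. Of 8 measured genes that define midbrain dopamine neurons, Lmx1b, En2, Foxa2 and Chrna6 had under 10 reads in the 20 libraries together. Pitx3, Lmx1a and Foxa1 had 19, 20 and 70 reads, and Nr4a2, which cortical neurons also express, had 2693 reads.

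The fourth standard-diet cortex library, here cortex standard replicate 4, stood apart from the other 9 cortex libraries. In it, 419 of 11788 accessions were at least 2-fold above each of the other 9, against 0 or 1 in each other cortex library. An olfactory bulb list summed to 805 CPM there and to 61.2 to 83.5 CPM in the other 9, with all 5 measured genes at their highest. A meninges and fibroblast list summed to 1418 CPM against 70.8 to 319 CPM, and a cortical glutamatergic list to 2238 CPM against 3395 to 4191 CPM. Other lists also lay outside the range of the other 9. A GABA interneuron list summed to 1393 against 730 to 867 CPM, and an endothelial and mural list to 815 against 472 to 682 CPM. A list of septum and neighbouring nuclei reached 127 against 56.1 to 77.2 CPM. Other amine breakdown enzymes reached 1005 against 873 to 926 CPM, and other biopterin genes 53.01 against 44.1 to 51.2 CPM. The striatal list (734 against 758 to 835 CPM) and a cholinergic list were lower. The sum of the olfactory list is not specific to the bulb, since it was 589 to 841 CPM in the accumbens libraries. Its genes differed in this. After the low-iron diet 2 of 4 tested passed as higher in the accumbens and 2 as lower, beside 59.1% of all accessions in either direction. Region calls under the standard diet are given with and without cortex standard replicate 4. In the accumbens, standard replicate 4 had 27 accessions at least 2-fold above each of the other 9 accumbens libraries, against 0 to 2 in those. Its cortical glutamatergic list summed to 655 CPM, against 139.6 to 208 CPM in the other 9. Without it, the standard-diet region calls of Qdpr (1.06 on the log2 scale, edgeR adjusted p = 1.11e-05) and Slc18a2 (0.37, edgeR adjusted p = 0.0218) still passed, and that of Maob did not (-0.19, edgeR adjusted p = 0.0546).

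Differences were tested with the quasi-likelihood test of edgeR, a package for count data, over all accessions at once, and a gene passed at an adjusted p under 0.05. Across the set, no gene passed for diet. In the accumbens 5 of the 9 were in the fit and 0 passed. Among all 11202 accessions 0 passed (0.0%), with 454 of them (4.05%) under an unadjusted p of 0.05 and 1 accession passing by DESeq2. In the cortex 6 of the 9 were in the fit and 0 passed. Among all 11662 accessions 0 passed (0.0%) by edgeR and 0 by DESeq2. There 699 accessions (5.99%), Th among them, had an unadjusted p under 0.05. No gene of the set had groups that did not overlap in a diet comparison, against 0.946% of accessions in the accumbens and 1.27% in the cortex. For the interaction, the test of whether the diet difference differs between regions, 0 of 6 genes passed. Among 11788 accessions 0 passed (0.0%) by edgeR and 0 by DESeq2, with 632 (5.36%) under an unadjusted p of 0.05. The 13 exact permutation tests of genes outside a fit gave no adjusted p under 0.997.

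Between regions, Th entered the fits only through its cortex level and is left out of these counts. Of the other 5 genes in the fit, 3 passed in each diet group. Under the standard diet Qdpr and Slc18a2 passed as higher in the accumbens and Maob as lower, where 47.0% of 11612 accessions passed, 23.0% as higher and 24.0% as lower. After the low-iron diet Qdpr and Slc18a2 passed as higher and Maoa as lower, where 59.1% of 11220 accessions passed, 30.1% as higher and 29.0% as lower. The groups did not overlap for 2 of the 5 genes, Qdpr and Slc18a2, under either diet, beside 33.6% of accessions under the standard diet and 44.8% after the low-iron diet. With so few genes and so many regional differences in the fits, these counts lie near the background. The diet and region comparisons use the same libraries in part and are not independent of each other.

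**Figure D1:**
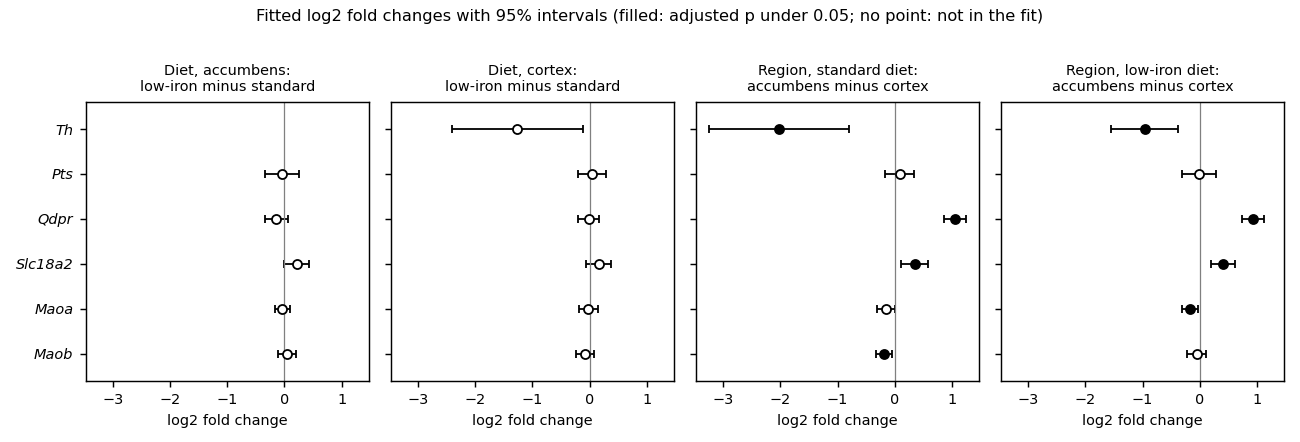
Log2 fold changes from edgeR with 95% intervals for the 6 genes that entered at least 1 fit, in the 2 diet comparisons (low-iron minus standard) and the 2 region comparisons (accumbens minus cortex); filled points have an adjusted p under 0.05. No diet point is filled, and Qdpr and Slc18a2 lie above 0 and Th below 0 in both region comparisons. Th was in the region fits only through its cortex level, so its filled points there are not read as tests. It is absent from the accumbens diet panel because it was not in that fit.

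Among the synthesis genes, Th had 1 cortex library far from the rest. In the standard-diet cortex its level was 4.005, 4.32, 3.43, 19.4 and 4.21 CPM in replicates 1 to 5. In the low-iron cortex the levels were 2.33, 3.23, 2.73, 2.87 and 3.46 CPM. The accumbens libraries held 1.30, 1.30, 2.13, 1.58 and 2.37 CPM under the standard diet and 1.59, 1.62, 2.60, 0.523 and 1.32 CPM after the low-iron diet. Replicate 4 of the standard cortex thus lay 4.49-fold above the highest of the other 9 cortex libraries, on 174 reads, while the remaining 4 libraries of its group lay close together. The promoter of Th is shown with that of Slc18a2 because both, alone among the 9 genes, hold a full cAMP response element within 250 bases before the start. They were read from a RefSeq table of rat assembly GRCr8, run 5′ to 3′ on the gene's strand, and cover 250 bases before and 50 after the start. Capitals mark the element TGACGTCA, which begins 69 bases before the start of Th and 52 bases before that of Slc18a2.
Th, chr1:207508169-207508468, minus strand: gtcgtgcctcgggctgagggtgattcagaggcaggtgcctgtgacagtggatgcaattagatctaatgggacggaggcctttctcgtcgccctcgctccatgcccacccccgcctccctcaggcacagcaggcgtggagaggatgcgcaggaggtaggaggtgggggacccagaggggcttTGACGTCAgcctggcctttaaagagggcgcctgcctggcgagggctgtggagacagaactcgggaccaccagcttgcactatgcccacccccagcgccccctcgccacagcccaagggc
Slc18a2, chr1:268399771-268400070, plus strand: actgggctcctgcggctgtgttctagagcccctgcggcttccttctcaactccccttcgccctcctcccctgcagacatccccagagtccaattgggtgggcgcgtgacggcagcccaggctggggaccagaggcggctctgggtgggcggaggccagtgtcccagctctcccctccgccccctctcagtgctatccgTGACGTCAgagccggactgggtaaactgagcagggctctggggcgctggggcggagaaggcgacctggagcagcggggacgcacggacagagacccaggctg

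The element reads the same on both strands. It was present in 612 of 33469 promoter windows of that length, or 1.83%, and no match elsewhere says only that these letters are not in the window. All 9 genes had at least 1 window in the table, and Ddc had 3. No binding data were part of the series.

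Th was too low for the filter on counts within the accumbens and entered the region fits only through its cortex level. Its levels and fold changes between regions are therefore given as descriptions, and no test of them is given. Under the standard diet the accumbens and cortex means were 1.73 ± 0.490 and 7.08 ± 6.91 CPM (SD, n = 5 each), without overlap. The log2 fold change was -2.02 (standard error, SE, 0.56), and -2.03 with no filter on counts. Without cortex standard replicate 4 the cortex mean was 3.99 ± 0.395 CPM (SD, n = 4) and the log2 fold change was -1.22 (SE 0.21). After the low-iron diet the accumbens and cortex means were 1.53 ± 0.745 and 2.92 ± 0.441 CPM (SD, n = 5 each). There 1 accumbens library (2.60 CPM) lay above the lowest cortex library (2.33 CPM), and the log2 fold change was -0.96 (SE 0.28). With no filter the fold change was -0.97.

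The size of the diet difference of Th in the cortex depended on cortex standard replicate 4. Its direction did not, since the log2 fold change ranged from -1.44 to -0.44 over the fits that left out a single library. The low-iron mean was 2.92 CPM against 7.08 CPM, a log2 fold change of -1.27 (SE 0.52, 95% interval -2.41 to -0.12, edgeR adjusted p = 0.683). Without cortex standard replicate 4 the log2 fold change was -0.44 (SE 0.17, edgeR adjusted p = 0.962), and the ranges of 3.43 to 4.32 and 2.33 to 3.46 CPM overlapped narrowly. The difference therefore did not pass in either form, and DESeq2 gave Th no p-value in the fit with all 10 libraries. In the accumbens the difference was -0.20 on the log2(CPM + 0.5) scale (exact permutation p = 0.611), with all 5 low-iron libraries between 3 and 12 reads. The test of a diet difference that differs between regions gave 1.06 (SE 0.72, edgeR adjusted p = 0.821) with every library and 0.24 (SE 0.37, edgeR adjusted p = 1.00) without cortex standard replicate 4.

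**Figure D2:**
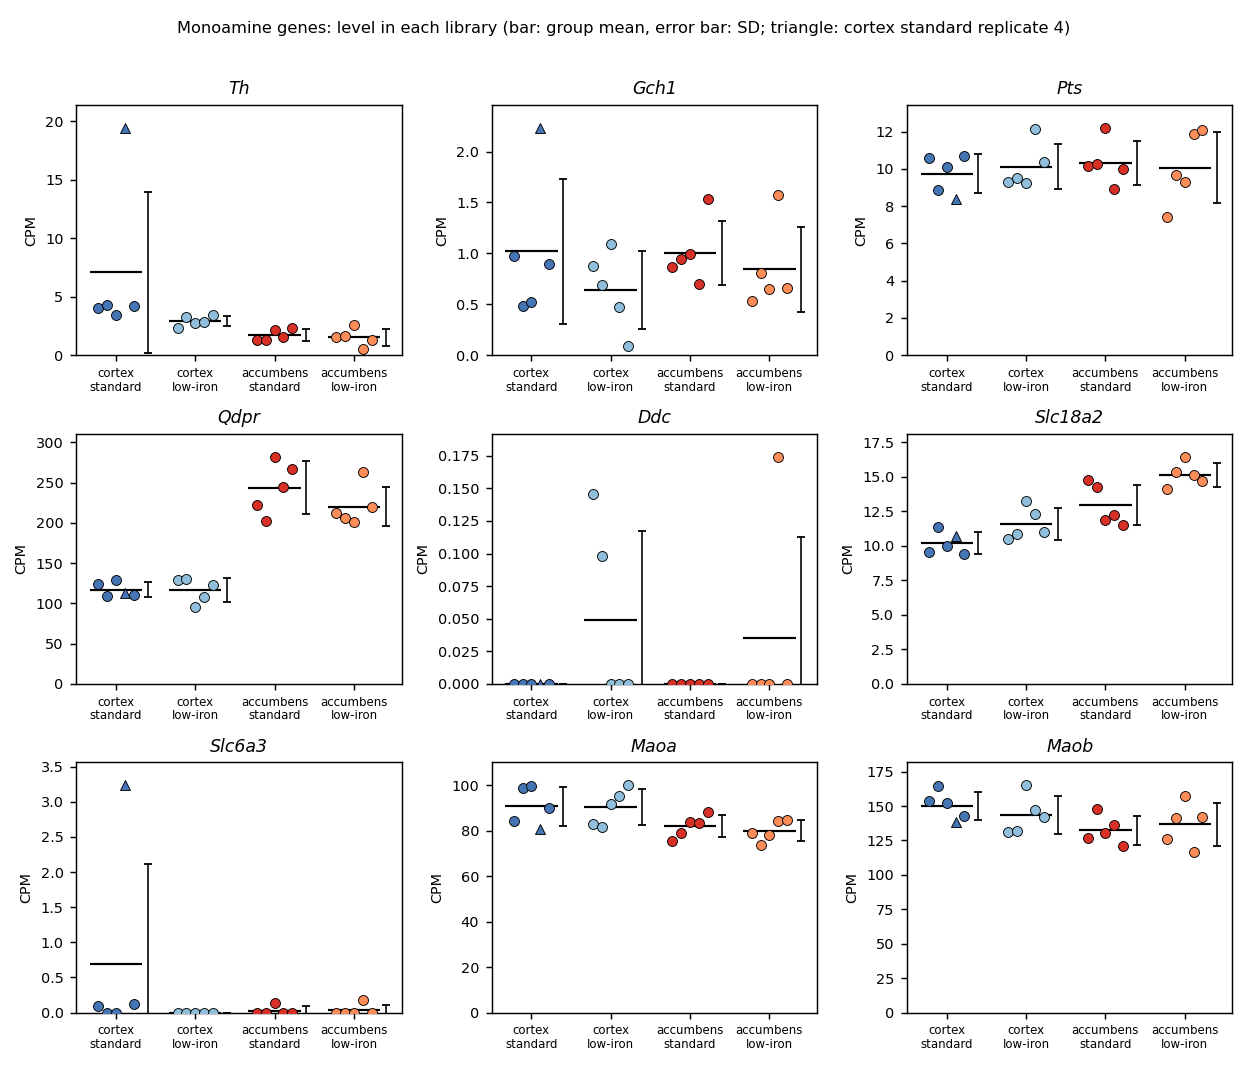
Level of each of the 9 genes in CPM (linear axes from 0) in every library of the 4 groups; points are libraries, horizontal bars group means, error bars the SD, and the triangle is cortex standard replicate 4. Th, Slc6a3 and Gch1 are highest in that library, at 19.4, 3.24 and 2.23 CPM, Qdpr separates the regions, and Ddc has at most 1 read in any library.

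Gch1 (GTP cyclohydrolase 1), which catalyses the first step of tetrahydrobiopterin synthesis, was near the limit of detection, with 1 to 20 reads per library. Its means were 1.02 ± 0.712 CPM in the standard cortex, 0.643 ± 0.383 in the low-iron cortex, 1.01 ± 0.313 in the standard accumbens and 0.843 ± 0.418 in the low-iron accumbens (SD, n = 5 each), and the ranges of all neighbouring groups overlapped. Cortex standard replicate 4 was again highest, at 2.23 CPM on 20 reads, against 0.0910 to 1.09 CPM in the other 9 cortex libraries. Without it the standard cortex mean was 0.718 ± 0.254 CPM (SD, n = 4). Gch1 was not in any fit. Its exact permutation p was 0.357 for diet in the cortex, 0.397 for diet in the accumbens, 0.817 for region under the standard diet and 0.460 after the low-iron diet.

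Pts (6-pyruvoyltetrahydropterin synthase), which acts on the product of Gch1, was measured at nearly the same level in every group. Its means were 9.73 ± 1.05 CPM in the standard cortex, 10.1 ± 1.23 in the low-iron cortex, 10.3 ± 1.18 in the standard accumbens and 10.1 ± 1.93 in the low-iron accumbens (SD, n = 5 each). The log2 fold change for diet was -0.04 in the accumbens (95% interval -0.34 to 0.26) and 0.05 in the cortex (95% interval -0.20 to 0.29). Between regions it was 0.09 under the standard diet (95% interval -0.16 to 0.34) and -0.01 after the low-iron diet (95% interval -0.30 to 0.29). None passed, with the lowest edgeR adjusted p at 0.558.

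Qdpr (quinoid dihydropteridine reductase), which regenerates tetrahydrobiopterin after each hydroxylation, had the lowest adjusted p of the set in both region comparisons. Levels in the standard accumbens were 222, 202, 282, 244 and 267 CPM, and in the low-iron accumbens 212, 207, 201, 263 and 219 CPM. In the cortex they were 124, 109, 129, 112 and 110 CPM under the standard diet and 129, 130, 95.02, 108 and 123 CPM after the low-iron diet. Every accumbens library lay above every cortex library. Qdpr was 2.08-fold higher in the accumbens under the standard diet (95% interval 1.81 to 2.39, log2 fold change 1.06, SE 0.09, edgeR adjusted p = 2.07e-06) and 1.90-fold higher after the low-iron diet (95% interval 1.67 to 2.17, log2 fold change 0.93, SE 0.09, edgeR adjusted p = 2.13e-07). Without cortex standard replicate 4 the standard-diet value was 1.04 on the log2 scale.

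Diet did not separate Qdpr in either region. The log2 fold change was -0.14 in the accumbens (95% interval -0.35 to 0.06, edgeR adjusted p = 0.972) and -0.02 in the cortex (95% interval -0.20 to 0.16, edgeR adjusted p = 0.963). The regional difference moved together with oligodendrocyte markers, the genes of the myelin-forming cells. Their 9 genes summed to 4629 to 7048 CPM in the standard accumbens and 5076 to 6530 CPM in the low-iron accumbens. In the cortex the sums were 1204 to 1442 and 947 to 1561 CPM. The list median between regions was 2.29 and 2.30 on the log2 scale, beside medians over all accessions tested of 0.0075 and 0.027. Of the 9, 8 passed as higher in the accumbens in each diet group, and Mbp passed as lower. Among all accessions 23.0% passed as higher under the standard diet and 30.1% after the low-iron diet. These counts were the same under the standard diet without cortex standard replicate 4. Within groups the order of the libraries matched in part. The lowest marker sum and the lowest Qdpr level fell in the same library in the standard accumbens and the low-iron cortex and in different ones in the other groups. The highest of each fell in the same library in every group except the low-iron cortex. The part of these cells in the Qdpr difference was not tested.

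**Figure D3:**
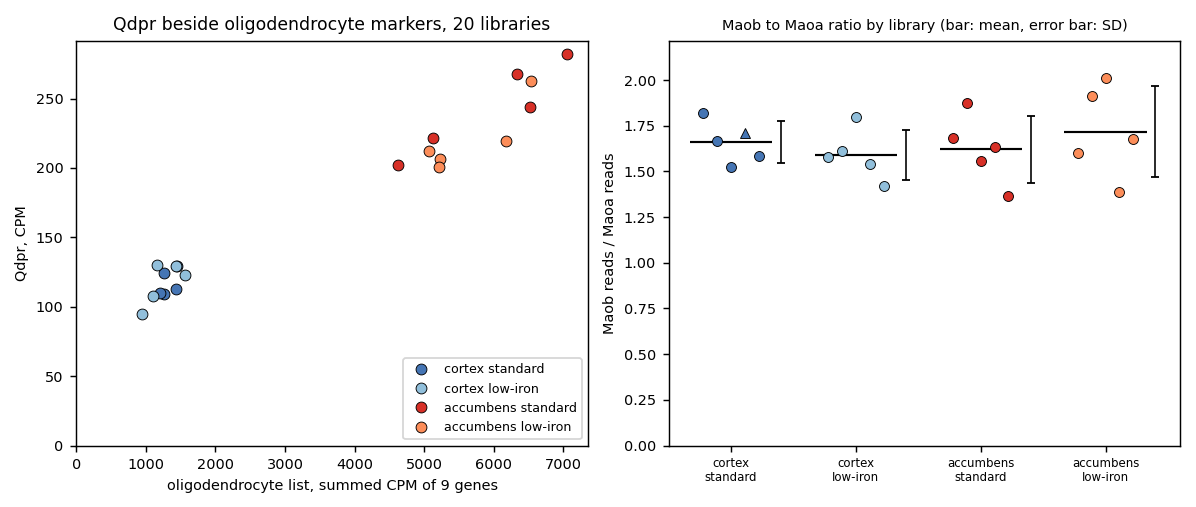
Left, Qdpr level (CPM) against the summed level of 9 oligodendrocyte markers (CPM) in the 20 libraries, coloured by group; right, reads of Maob divided by reads of Maoa in each library, with bars for group means, error bars for the SD and a triangle for cortex standard replicate 4. Accumbens libraries lie at 201 to 282 CPM of Qdpr and cortex libraries at 95.02 to 130 CPM, while the 4 groups overlap in the Maob to Maoa ratio.

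Ddc, the decarboxylase shared by the dopamine and serotonin pathways, could not be measured from these counts. Its 3 RefSeq accessions together held 3 reads, 1 in each of 2 low-iron cortex libraries and 1 low-iron accumbens library. Symbols with several accessions were often low in these files: of 598 such symbols, 35.3% had under 10 reads in all libraries together, against 20.4% of 16630 symbols with a single accession, and their median totals were 62.5 and 2081 reads. The abundant astrocyte gene Aqp4, which also has several accessions, had 0 reads. Whether reads shared by the Ddc accessions were set aside as ambiguous was not tested, so the count does not show that Ddc was silent.

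Of the 2 transporters in the set, Slc18a2 was the only 1 with reads in every library. From the lowest mean to the highest, the groups were standard cortex (9.52, 11.4, 9.99, 10.7 and 9.43 CPM), low-iron cortex (10.5, 10.9, 13.3, 12.3 and 11.01 CPM), standard accumbens (14.8, 14.3, 11.9, 12.3 and 11.6 CPM) and low-iron accumbens (14.1, 15.4, 16.5, 15.2 and 14.7 CPM). Neighbouring groups in this order overlapped, while the 2 regions did not overlap within a diet. Slc18a2 was 1.27-fold higher in the accumbens under the standard diet (95% interval 1.09 to 1.49, log2 fold change 0.35, SE 0.10, edgeR adjusted p = 0.0163) and 1.33-fold higher after the low-iron diet (95% interval 1.14 to 1.54, log2 fold change 0.41, SE 0.10, edgeR adjusted p = 0.00230). Cortex standard replicate 4, with 10.7 CPM, was sixth of the 10 cortex libraries, and without it the standard-diet value was 0.37 (edgeR adjusted p = 0.0134).

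For diet, the Slc18a2 means were 15.2 ± 0.870 CPM after the low-iron diet and 13.0 ± 1.48 CPM under the standard diet in the accumbens (SD, n = 5 each). The log2 fold change was 0.22 (SE 0.10, 95% interval -0.0019 to 0.44). The edgeR adjusted p was 0.972, from an unadjusted 0.0518, and the groups overlapped. In the cortex the means were 11.6 ± 1.17 and 10.2 ± 0.826 CPM (SD, n = 5 each) and the log2 fold change was 0.16 (SE 0.10, 95% interval -0.06 to 0.38, edgeR adjusted p = 0.683). Neither difference passed. The difference between the regional diet effects was 0.04 (SE 0.14, edgeR adjusted p = 0.963).

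Slc6a3, a marker of dopamine neurons, was essentially a single-library signal. It had 29 reads (3.24 CPM) in cortex standard replicate 4 and 0 or 1 read in each of the other 19 libraries. The 5 low-iron cortex libraries all had 0 reads, which allows up to 3 reads in each. Without replicate 4 the standard cortex mean was 0.0541 ± 0.0644 CPM (SD, n = 4). Slc6a3 entered no fit, and its exact permutation p was 0.167 for diet in the cortex and 0.405 for region under the standard diet. Its promoter window is shown beside the pair above because Th and Slc6a3 were high in the same library. It holds no TGACGTCA, so no letters are in capitals.
Slc6a3, chr1:31578913-31579212, minus strand: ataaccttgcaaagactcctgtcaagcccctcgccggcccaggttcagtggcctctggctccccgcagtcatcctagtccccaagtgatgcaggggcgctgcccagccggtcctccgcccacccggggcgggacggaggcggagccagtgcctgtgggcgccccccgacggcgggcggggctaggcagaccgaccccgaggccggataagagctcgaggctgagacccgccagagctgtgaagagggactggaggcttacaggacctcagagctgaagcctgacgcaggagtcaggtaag

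Of the other genes of the amine pathways, 2 of 5 measured biopterin genes, 1 of 8 synthesis enzymes, 1 of 7 transporters and 5 of 8 breakdown enzymes had their highest cortex level in cortex standard replicate 4. The share of all accessions at their highest there is not given, so these counts are not read as a trait of the pathway. In that library 419 of 11788 accessions were at least 2-fold above each of the other 9. Gchfr, the regulator that feeds back on Gch1, stood at 8.03 CPM against 0.363 to 1.56 CPM in the other 9 cortex libraries, Aldh1a1 at 62.5 against 9.79 to 22.3 CPM, and Sult1a1 at 83.2 against 16.7 to 32.9 CPM. These 3 were named after their values were seen. Slc18a2 lay within the range of the others, and Maoa (80.9 CPM) and Pts (8.37 CPM) had their lowest cortex levels in this library. The midbrain dopamine identity list summed to 36.7 CPM, within the 18.6 to 39.6 CPM of the other 9. Most reads of that list are of Nr4a2, which cortical neurons also express, so the sum cannot show whether its other genes were raised. Of its 8 measured genes, 1 had its highest cortex level in this library, and Pitx3, En2 and Foxa2 had 0 reads there. Of the olfactory list, Cdhr1 stood at 453 CPM against 15.3 to 34.9 CPM and Tbx21, a marker of projection neurons of the olfactory bulb, at 10.7 against 0 to 0.240 CPM. Both were named after their values were seen. The part of the tissue behind these markers in the Th, Slc6a3 and Gch1 levels was not tested.

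**Figure D4:**
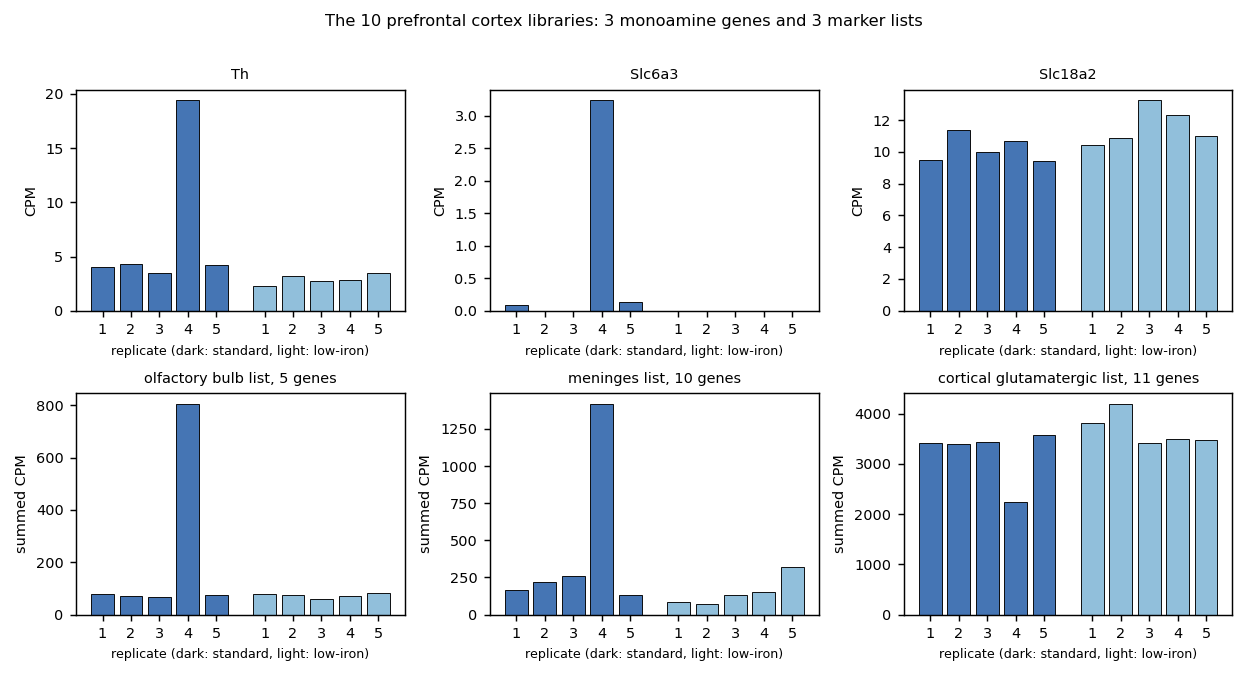
Levels in the 10 prefrontal cortex libraries (CPM, bars from 0; dark, standard diet; light, low-iron diet) of Th, Slc6a3 and Slc18a2 above, and the summed levels of an olfactory bulb list, a meninges list and a cortical glutamatergic list below. Standard replicate 4 is high for Th (19.4 CPM), Slc6a3 (3.24 CPM), the olfactory list (805 CPM) and the meninges list (1418 CPM), low for the glutamatergic list (2238 CPM) and within the others for Slc18a2. Further lists in which it lay outside the range of the other cortex libraries are not drawn.

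The breakdown enzymes Maoa and Maob were well counted, with 361 to 1234 and 647 to 2059 reads per library. Both genes lie on the X chromosome, are paralogues, and face each other there, which is why their promoters are shown as a pair. The windows are read as above and capitals mark the GC box GGGCGG, or CCGCCC where it lies on the other strand. GC boxes were present in 33.1% of all promoter windows, so 2 in Maob and 4 in Maoa are a description only.
Maob, chrX:8490155-8490454, plus strand: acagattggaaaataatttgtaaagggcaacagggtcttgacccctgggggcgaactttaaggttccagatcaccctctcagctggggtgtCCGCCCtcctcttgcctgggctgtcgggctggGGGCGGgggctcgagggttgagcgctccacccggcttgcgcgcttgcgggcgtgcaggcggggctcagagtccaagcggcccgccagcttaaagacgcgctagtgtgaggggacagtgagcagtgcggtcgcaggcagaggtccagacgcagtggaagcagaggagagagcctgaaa
Maoa, chrX:8681323-8681622, minus strand: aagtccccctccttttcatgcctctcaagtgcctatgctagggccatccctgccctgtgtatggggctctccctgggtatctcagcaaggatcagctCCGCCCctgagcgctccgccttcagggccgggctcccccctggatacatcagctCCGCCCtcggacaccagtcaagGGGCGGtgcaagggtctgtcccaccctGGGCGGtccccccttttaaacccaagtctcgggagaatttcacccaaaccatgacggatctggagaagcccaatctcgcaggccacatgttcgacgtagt

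Maoa, which prefers serotonin and noradrenaline, had slightly lower means in the accumbens. Its levels were 84.2, 98.8, 99.9, 80.9 and 90.1 CPM in the standard cortex and 75.3, 79.2, 84.0, 83.5 and 88.5 CPM in the standard accumbens. After the low-iron diet they were 83.1, 81.7, 91.9, 95.3 and 100.1 CPM in the cortex and 79.0, 73.9, 78.3, 84.4 and 84.7 CPM in the accumbens. The groups overlapped under both diets. The regional log2 fold change was -0.15 under the standard diet (SE 0.07, edgeR adjusted p = 0.110) and -0.16 after the low-iron diet (SE 0.07, edgeR adjusted p = 0.0418). The first value passed without cortex standard replicate 4 (-0.19, edgeR adjusted p = 0.0267). The second was lost in 6 of the 10 fits that left out a single library, with adjusted p from 0.0135 to 0.122.

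Maob, which in brain is known from astrocytes and serotonin neurons, also had slightly lower means in the accumbens. Its means were 150 ± 10.3 CPM in the standard cortex, 144 ± 13.8 in the low-iron cortex, 133 ± 10.4 in the standard accumbens and 137 ± 15.7 in the low-iron accumbens (SD, n = 5 each), with overlapping ranges. The regional log2 fold change was -0.18 under the standard diet (SE 0.07, edgeR adjusted p = 0.0380) and -0.05 after the low-iron diet (SE 0.08, edgeR adjusted p = 0.574). Without cortex standard replicate 4 the first value was -0.21 (edgeR adjusted p = 0.0112). That call was lost in 7 of the 10 fits that left out a single library (adjusted p from 0.0112 to 0.0995), and in a fit of all 20 libraries (adjusted p = 0.0510). Of 8 tested astrocyte markers, 1 passed as higher and 2 as lower in the accumbens under the standard diet (1 and 3 without cortex standard replicate 4), where 47.0% of all accessions passed.

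Diet differences of both oxidases were small and did not pass. For Maoa the log2 fold change was -0.04 in the accumbens (95% interval -0.16 to 0.09) and -0.02 in the cortex (95% interval -0.19 to 0.14). For Maob it was 0.05 in the accumbens (95% interval -0.12 to 0.21) and -0.08 in the cortex (95% interval -0.24 to 0.07). These intervals hold no change as large as 1.5-fold. The ratio of Maob to Maoa reads within a library, which does not depend on library size, averaged 1.66 ± 0.115 in the standard cortex, 1.59 ± 0.135 in the low-iron cortex, 1.62 ± 0.185 in the standard accumbens and 1.72 ± 0.251 in the low-iron accumbens (SD, n = 5 each). None of its 4 comparisons passed: the exact permutation p was 0.5 and 0.397 for diet in the accumbens and cortex and 0.675 and 0.373 for region under the standard and low-iron diets, with adjusted values of 0.667 or 0.675. Reads matching both paralogues may have been left out of the counts, and this was not tested.

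Other genes of the pathway came from lists of 6 biopterin genes, 8 synthesis enzymes, 7 transporters and 8 breakdown enzymes. None passed for diet or for the interaction. Of the biopterin list, 5 were in the cortex diet fit and the lowest unadjusted p was that of Gchfr, with a log2 fold change of -1.41 (SE 0.82, edgeR adjusted p = 0.683), which was -0.14 without cortex standard replicate 4, followed by Pcbd1 at -0.12 (SE 0.11, edgeR adjusted p = 0.759). Of the 8 breakdown enzymes, all in both diet fits, Aldh2 was at -0.22 (SE 0.10, edgeR adjusted p = 0.683) and Sult1a1 at -0.70 (SE 0.39, edgeR adjusted p = 0.683) in the cortex, and at -0.12 and -0.20 without that library. In the accumbens Akr1a1 was at -0.11 (SE 0.05, edgeR adjusted p = 0.972) and Aldh1a1 at -0.40 (SE 0.26, edgeR adjusted p = 0.972). The median log2 fold change of the breakdown list was -0.03 in each region, beside medians over all accessions of 0.0018 in the accumbens and -0.00062 in the cortex.

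Of the synthesis enzymes, Tph2, the brain tryptophan hydroxylase, stood at 2.29 ± 0.746 CPM in the standard accumbens and 0.710 ± 0.202 CPM in the standard cortex (SD, n = 5 each). It entered that fit only through its accumbens level, so no test of it is given. Asmt, which makes melatonin, was at 0.75 after the low-iron diet (edgeR adjusted p = 0.00834) in the accumbens against the cortex on the log2 scale. Under the standard diet it did not pass with every library (0.53, edgeR adjusted p = 0.0801) and passed without cortex standard replicate 4 (0.69, edgeR adjusted p = 0.0179).

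Among the transporters, 3 of 7 were tested. Slc22a3, an extraneuronal monoamine transporter, was lower in the accumbens (log2 fold change -1.62, edgeR adjusted p = 0.000113, and -1.55 after the low-iron diet, edgeR adjusted p = 5.98e-06). The first value was -1.73 without cortex standard replicate 4 (edgeR adjusted p = 1.41e-05). Slc18a1, the other vesicular monoamine transporter, was higher (0.86, edgeR adjusted p = 0.000238, and 0.98, edgeR adjusted p = 0.000233), with the first at 0.79 without that library (edgeR adjusted p = 0.000136). Of the biopterin genes, 2 of 5 tested passed as higher and 1 as lower under the standard diet, and 1 of 4 in each direction after the low-iron diet, beside 47.0% and 59.1% of all accessions in either direction. The standard-diet counts were 3 higher and 1 lower without cortex standard replicate 4. Spr, the last enzyme of tetrahydrobiopterin synthesis, was lower in the accumbens in both diet groups (-0.42, edgeR adjusted p = 0.0143, and -0.63, edgeR adjusted p = 0.000104). The first was -0.49 without that library (edgeR adjusted p = 0.00227). Dnajc12, a co-chaperone of tyrosine hydroxylase, was higher in the accumbens than in the cortex after the low-iron diet (0.32, edgeR adjusted p = 0.0143). Its standard-diet value is not given here, so this difference is not read as particular to the low-iron diet.

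Of the 8 breakdown enzymes, 2 passed as higher in the accumbens and 1 as lower under the standard diet, and 3 as higher and 2 as lower after the low-iron diet, again beside 47.0% and 59.1% of all accessions. Under the standard diet 3 passed as higher and 3 as lower without cortex standard replicate 4. The aldehyde dehydrogenase Aldh3a2 was higher in both (0.51, edgeR adjusted p = 7.76e-05, and 0.63, edgeR adjusted p = 1.37e-08), with the first at 0.58 without that library (edgeR adjusted p = 6.56e-07). Under the standard diet the histamine methyltransferase Hnmt followed, at 0.47 (edgeR adjusted p = 0.00511), or 0.44 without that library (edgeR adjusted p = 0.00702). After the low-iron diet it was again at 0.45 (edgeR adjusted p = 0.00565). Without cortex standard replicate 4, Gchfr (1.23, edgeR adjusted p = 0.00682), Aldh2 (0.21, edgeR adjusted p = 0.00819) and Sult1a1 (-0.45, edgeR adjusted p = 0.00427) also passed under the standard diet. Of the midbrain dopamine identity list only Nr4a2 was in the fits, lower in the accumbens by -2.31 under the standard diet (edgeR adjusted p = 1.57e-05), and by -2.19 without cortex standard replicate 4 (edgeR adjusted p = 2.97e-05).

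For each gene in the interaction fit, the accessions with the most similar profile were taken as those with the smallest root mean square difference in log2 CPM over the 20 libraries, each centred on its own mean, among 11787 others. For Th these were Foxc1 (0.321), Cybrd1 (0.365) and Lgals1 (0.376), against a median of 0.861 over all. In cortex standard replicate 4 they stood at 69.9, 12.3 and 46.1 CPM. The standard cortex means, which include that library and are raised by it, were 29.6, 6.07 and 20.05 CPM. For Qdpr they were Sox10 (0.106), Septin4 (0.117) and Fah (0.123), against a median of 0.547, each with higher means in the accumbens. For Slc18a2 they were Nap1l1 (0.111), Steep1 (0.114) and Usp1 (0.117), against a median of 0.315. For Maoa they were Eps15 (0.0736), Rab18 (0.0832) and Canx (0.0837), against 0.262, and for Maob Mmd2 (0.0710), Cdc42ep4 (0.0848) and Spop (0.0872), against 0.264. For Pts they were Eef1e1 (0.124), Gfm2 (0.128) and Cers5 (0.131), against 0.284. The medians differ between genes, so the distances are not compared between them.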

How the data were processed

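RNA of the 20 libraries was enriched for poly(A) and read as 75 bp single reads, per the labels' protocols. The authors deposited unnormalized read counts per RefSeq accession. Trimmomatic 0.36.3, STAR, HTSeq, DESeq2, DESeq and build rn6 are named in the submitters' processing notes, with their roles and the annotation not given in the sources used here. The unstranded count was used, so a gene and an antisense partner cannot be told apart. Rows that name no gene held 50.8 to 60.7% of reads, ambiguous ones 3.61 to 4.23%, and were left out. Symbols came from a RefSeq table of assembly GRCr8 for 17345 accessions and from the deposited tables for 867, which left 76 unnamed.

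Each comparison was fitted in R 4.3.3 with the quasi-likelihood test of edgeR 4.0.16 (TMM, robust, filterByExpr with minimum count 10) on all accessions that passed the filter. P-values were adjusted over all of these by the Benjamini-Hochberg method. In simulated counts for the diet and region comparisons, the fits recovered 62 to 85% of 1.5-fold and 85 to 97% of 2-fold changes, with 7 to 12 false calls. No simulated library was set apart as cortex standard replicate 4 was, so that case was not tested. Diet fits used 10 libraries of a region, region fits 10 of a diet, and the interaction all 20. Genes outside a fit were tested on log2(CPM + 0.5) by a two-sided exact permutation test, whose smallest p is 0.00794, adjusted over 13 tests; the oxidase ratio likewise over 4. Alternatives were RLE size factors, DESeq2 1.42.0, no filter, a replicate block, reads summed per symbol, all 20 libraries, a pseudocount of 2 CPM and each library left out. The 9 genes and all lists were chosen with earlier results of these data known. Named were the 9 genes, in each list those passing for diet or else the 2 with the lowest p, for the region comparisons of the 4 other monoamine lists the 2 largest passing folds, and the 3 nearest accessions of each gene; not all of these are reported here. Motifs were searched on both strands of 300-base windows. Floors cover counting error only. The intervals of fold changes rest on the standard errors of the edgeR fits, which include the scatter among libraries.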

Additional observations from a re-analysis of the deposited data

Results flagged for a closer look

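Of 40 sets of 5 libraries (9 genes and the oxidase ratio in 4 groups), 7 held a library whose gap to its nearest neighbour was over 0.710 of the whole range, the limit for 5 samples. That limit supposes continuous values and independent sets. These sets share libraries and some hold mostly 0 reads, so the 7 cannot be set against a rate expected by chance. In the standard cortex, replicate 4 was the high library for Th (19.4 CPM), Slc6a3 (3.24 CPM) and Gch1 (2.23 CPM), as described above. In the low-iron accumbens, replicate 4 was high for Gch1 (1.57 CPM, 9 reads). The remaining 3 rest on 1 read in 1 library: Ddc in low-iron accumbens replicate 4 (0.174 CPM), Slc6a3 in the same library (0.174 CPM), and Slc6a3 in standard accumbens replicate 3 (0.142 CPM).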

How the results depend on the processing

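Depth limited Th in the accumbens, Gch1, Slc6a3 and Ddc, which had at most 20 reads in nearly all libraries, and Ddc has several accessions. Of the alternatives that kept every library, those for the calls of Qdpr and Slc18a2 between regions and for the absence of diet calls among the 9 genes stayed on the same side of the threshold. DESeq2 called 1 accession for diet in the accumbens, and 1 for the interaction when cortex standard replicate 4 was left out, an alternative chosen after seeing the data; neither was among the 9 genes. The fit of all 20 libraries lost the call of Maob under the standard diet (-0.18, adjusted p = 0.0510), and turned Qdpr for diet in the cortex to 0.00043. Th between regions after the low-iron diet was at -0.97 in that fit. DESeq2 without cortex standard replicate 4 called Maoa under the standard diet (-0.19, adjusted p = 0.0253) and turned its interaction to 0.013. The causes were not tested.

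With each library left out in turn, directions turned for small differences. The log2 ranges were -0.0106 to 0.0928 for Maob, -0.116 to 0.0541 for Pts, -0.372 to 0.0279 for Th and -0.0720 to 0.0863 for Slc6a3 for diet in the accumbens. In the cortex they were -0.0624 to 0.0197 for Maoa, -0.0308 to 0.0837 for Pts and -0.0527 to 0.0466 for Qdpr. Between regions they were -0.0617 to 0.308 for Gch1 and -0.0941 to 0.0199 for the oxidase ratio under the standard diet, and -0.0874 to 0.0775 for Pts and -0.125 to 0.0218 for Ddc after the low-iron diet. For the interaction they were -0.00062 to 0.0987 for Slc18a2 and -0.0676 to 0.00922 for Maoa. Th for region under the standard diet ranged from -2.20 to -1.22, the latter without cortex standard replicate 4. Region calls among the 9 genes numbered 3 to 5 under the standard diet and 3 to 4 after the low-iron diet. Over all accessions they ran from 4906 of 11665 to 6294 of 11647 under the standard diet. After the low-iron diet they ran from 6245 of 11274 to 6534 of 11300. Both the 5 and the 6294 came without cortex standard replicate 4. The counts among the 9 genes include Th, which was in the region fits only through its cortex level.

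The correlation of same-numbered deviations ranged from -0.312 to 0.160 over the diet and region comparisons. In the region comparisons, where libraries could share a rat, it ranged from -0.0441 to 0.136. These values do not settle whether replicate numbers pair the libraries. With the replicate number as a block, 0 genes passed for either diet comparison and 4, Th included, in each region comparison, as without it. Among all accessions 5188 of 11612 passed between regions under the standard diet in that fit, and 6818 of 11220 after the low-iron diet. Pts between regions after the low-iron diet turned from -0.0087 to 0.0054.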
